A study of Homo sapiens with 4 samples.

Results

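Genes of the germ line, of meiosis and of the piRNA pathway were followed in H1 human embryonic stem cells that carry an activated form of MAP2K5. A set of 60 such genes was proposed by their known roles, with RBM46 included because it stood among the largest rises in these libraries. Of the 60, 35 are listed among the 17472 genes of the deposited table and 25 are not. The table holds only genes with at least 1 read in every library, so being listed already depends on the level.

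The H1 line is pluripotent and long established, and it was grown here in E8, a defined medium with FGF2 and TGFβ. In the MEK5DD group, 2 libraries came from H1 cells given a lentivirus that encodes MAP2K5 with Ser311 and Ser315 replaced by Asp, after which transduced cells were kept with puromycin. In the WT group, 2 libraries came from H1 cells without that construct. Neither group includes cells given the virus and puromycin alone, so MEK5DD and its delivery and selection cannot be told apart. The labels describe a single MEK5DD line and do not say whether replicates were separate cultures, so each p-value reflects only how far these libraries spread, which could be technical.

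Germ cells differ from other cells in running meiosis, the divisions that make haploid cells, and in silencing transposons with small RNAs bound by PIWI proteins, the piRNAs. Meiotic chromosomes are held by cohesins with germ cell subunits, joined along their length by the synaptonemal complex, and exchanged by recombination that DMC1 and its partners carry out. Many of these genes are silent in somatic cells, where DNA methylation and the PRC1.6 repressor complex act on their promoters, and some are transcribed at a low level in pluripotent stem cells.

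The libraries were first checked against their labels. MAP2K5 had 3382 and 3558 normalised read counts in the MEK5DD libraries, against 344 and 315 in the WT libraries. Recovered reads ranged from 14908486 to 17628945 per library. The 8 pluripotent stem cell markers, among them POU5F1, NANOG and LIN28A, were all listed, with summed counts of 134319 and 125194 in MEK5DD and 131416 and 128934 in WT. Of these 8, NANOG was higher (log2 fold change 0.26, limma adjusted p = 0.0117) and SOX2 lower (-0.20, limma adjusted p = 0.0437), and neither passed with either WT replicate left out. The MEK5DD pair differed more between its replicates (chi-square per gene 6.11) than the WT pair (1.88). Of 8 fibroblast markers 4 were listed, with summed counts of 9170 and 8822 in MEK5DD against 7417 and 7335 in WT. Of those 4, TAGLN (log2 fold change 1.02, limma adjusted p = 1.03e-05), COL1A2 (0.75, 4.92e-05) and COL1A1 (0.64, 0.00124) were higher, and THY1, which makes up most of the sum, was not called. COL3A1, DCN, LUM and POSTN are not listed, and the part of such cells in the results below was not tested. Of 8 gonadal somatic markers 4 were listed, with sums of 90.0 and 78.7 in MEK5DD against 126 and 131 in WT. FOXL2 among them was lower (log2 fold change -0.94, limma adjusted p = 0.00923), and NR5A1, INSL3, CYP17A1 and FSHR are not listed. For 8 markers of differentiating derivatives the sums were 194 and 235 in MEK5DD against 106 and 109 in WT over the 4 that are listed, with SOX17, FOXA2, GATA6 and HAND1 not listed. MIXL1 was higher (log2 fold change 0.98, limma adjusted p = 0.00120). The part of such cells was not tested either. With limma fitted without a trend of the variance on the mean, TAGLN and COL1A2 still passed among these markers. NANOG (adjusted p = 0.167), SOX2 (0.238), COL1A1 (0.0581), FOXL2 (0.0761) and MIXL1 (0.0513) did not pass in that fit.

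Promoter sequences are shown for the 3 members with the largest rises on the log2 scale and for the member that fell, so that the start regions of genes that moved in opposite directions can be read together. Each runs from 250 bases before to 50 bases after the RefSeq gene start in GRCh38.p14, on the plus strand, 5′ to 3′. Capitals mark CACGTG, the E-box bound by MAX and its partners, and TCCCGC, which E2F proteins bind, each searched on both strands, where the E-box reads the same and the other motif reads GCGGGA. The motifs do not share letters with each other in these windows.
RBM46, chr4:154781022-154781321: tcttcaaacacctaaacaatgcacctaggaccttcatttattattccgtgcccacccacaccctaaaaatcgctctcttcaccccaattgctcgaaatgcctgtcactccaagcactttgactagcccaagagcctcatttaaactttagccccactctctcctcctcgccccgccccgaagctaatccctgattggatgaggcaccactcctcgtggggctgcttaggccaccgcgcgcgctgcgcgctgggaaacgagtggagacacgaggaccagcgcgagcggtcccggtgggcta
TDRD1, chr10:114179037-114179336: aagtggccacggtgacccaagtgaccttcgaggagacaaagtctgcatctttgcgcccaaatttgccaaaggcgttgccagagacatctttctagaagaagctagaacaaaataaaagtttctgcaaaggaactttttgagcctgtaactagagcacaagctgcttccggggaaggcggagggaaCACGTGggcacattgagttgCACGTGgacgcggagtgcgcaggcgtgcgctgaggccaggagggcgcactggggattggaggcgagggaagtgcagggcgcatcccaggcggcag
MAEL, chr1:166975332-166975631: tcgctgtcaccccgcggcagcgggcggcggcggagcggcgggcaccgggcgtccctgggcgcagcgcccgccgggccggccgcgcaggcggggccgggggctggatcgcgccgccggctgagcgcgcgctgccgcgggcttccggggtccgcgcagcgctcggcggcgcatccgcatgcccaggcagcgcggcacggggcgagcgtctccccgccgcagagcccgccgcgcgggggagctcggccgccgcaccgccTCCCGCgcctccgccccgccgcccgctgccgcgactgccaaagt
MEIOC, chr17:44656218-44656517: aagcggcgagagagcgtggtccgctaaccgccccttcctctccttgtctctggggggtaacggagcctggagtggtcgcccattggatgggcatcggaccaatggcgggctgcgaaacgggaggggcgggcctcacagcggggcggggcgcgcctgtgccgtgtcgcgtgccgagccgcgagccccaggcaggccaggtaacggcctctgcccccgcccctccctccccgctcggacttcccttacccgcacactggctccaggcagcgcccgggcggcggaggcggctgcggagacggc

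The TDRD1 window holds 2 copies of CACGTG, and the MAEL window holds 1 copy of TCCCGC. Neither motif is written in the RBM46 and MEIOC windows. CpG pairs numbered 19 in the RBM46 window, 17 for TDRD1, 60 for MAEL and 34 for MEIOC, beside a median of 26 over the 11280 promoters that match genes of the table. The MAEL window belongs to the most upstream of several annotated starts, and which start these cells used was not tested. The listed gene ILDR2, not called, starts 100 bases from MAEL, so the window may include its start as well. Among the 28 listed members with a promoter in RefSeq's table, 39.3% held TCCCGC and 7.14% held CACGTG, beside 42.1% and 9.86% of all promoters of the table's genes. Of the 22 members that are not listed but have a promoter entry, 68.2% held TCCCGC and 9.09% CACGTG. Over all 27305 promoters, of listed genes or not, the shares were 26.8% and 7.43%.

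Normalised read counts of all 35 listed members are plotted by library. Most members sat at nearly the same count in all 4 libraries. Counts over all members ran from under 1 for SMC1B in a MEK5DD library to over 2000 for CCNB1IP1. RBM46, TDRD1, MAEL and MEI4 stood visibly higher in the MEK5DD libraries, and MEIOC and SMC1B, with SMC1B on few reads, stood visibly lower.

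**Figure D1:**
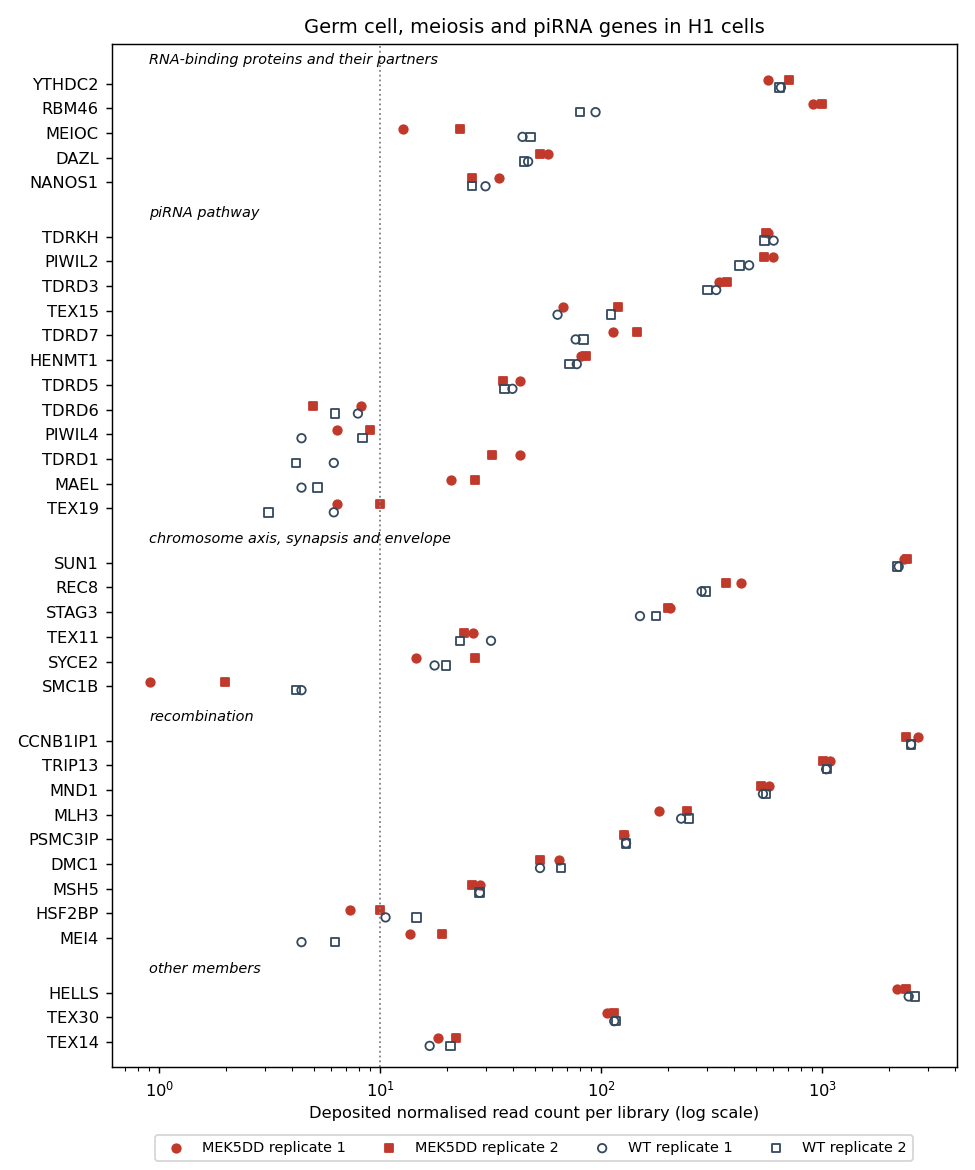
Deposited normalised read counts (log axis) of the 35 listed germ cell, meiosis and piRNA genes, 1 row per gene, with filled red symbols for the MEK5DD libraries above open symbols for the WT libraries; the dotted line marks a count of 10, used to decide which genes were tested. RBM46 lies at 911 and 994 in MEK5DD against 94.2 and 80.2 in WT, and TDRD1 and MAEL lie right of the line in MEK5DD and left of it in WT.

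The members were compared between MEK5DD and WT with limma, fitted over the 15721 genes that had a count of at least 10 in at least 2 libraries, and p-values were adjusted over all of these genes. The fit took in 31 of the 35 listed members. Besides RBM46, which was chosen for its difference in this comparison and gets no test here, 5 of the other 30 members rose and 1 fell at an adjusted p of 0.05. Those 6 of 30 stand beside 14.2% of all genes tested (7.69% higher and 6.47% lower). With RBM46 counted, 7 of 31 members passed (22.6%). All 7 passed with edgeR as well, where 14.7% of genes did. With DESeq2 4 of 28 members passed (RBM46, TDRD1, REC8 and MEIOC), beside 9.57% of genes. Without a variance trend 3 of 31 passed (RBM46, TDRD1 and MAEL), beside 2.79%. The counts of 7, 4 and 3 all include RBM46, whose rise was the reason for its choice. They are therefore not to be read against the shares of all genes. The median log2 fold change was 0.06 over those 30 members and -0.0023 over all genes tested. Of the 31 members, 3 (TDRD1, MAEL and MEI4) reached the count of 10 only in the MEK5DD libraries and 1 (HSF2BP) had 2 libraries over it only in WT, so these had to differ in order to be tested, and the shares above are a description. In 18 of the 35 listed members (51.4%) the MEK5DD and WT values did not overlap, beside 54.3% of all listed genes.

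**Figure D2:**
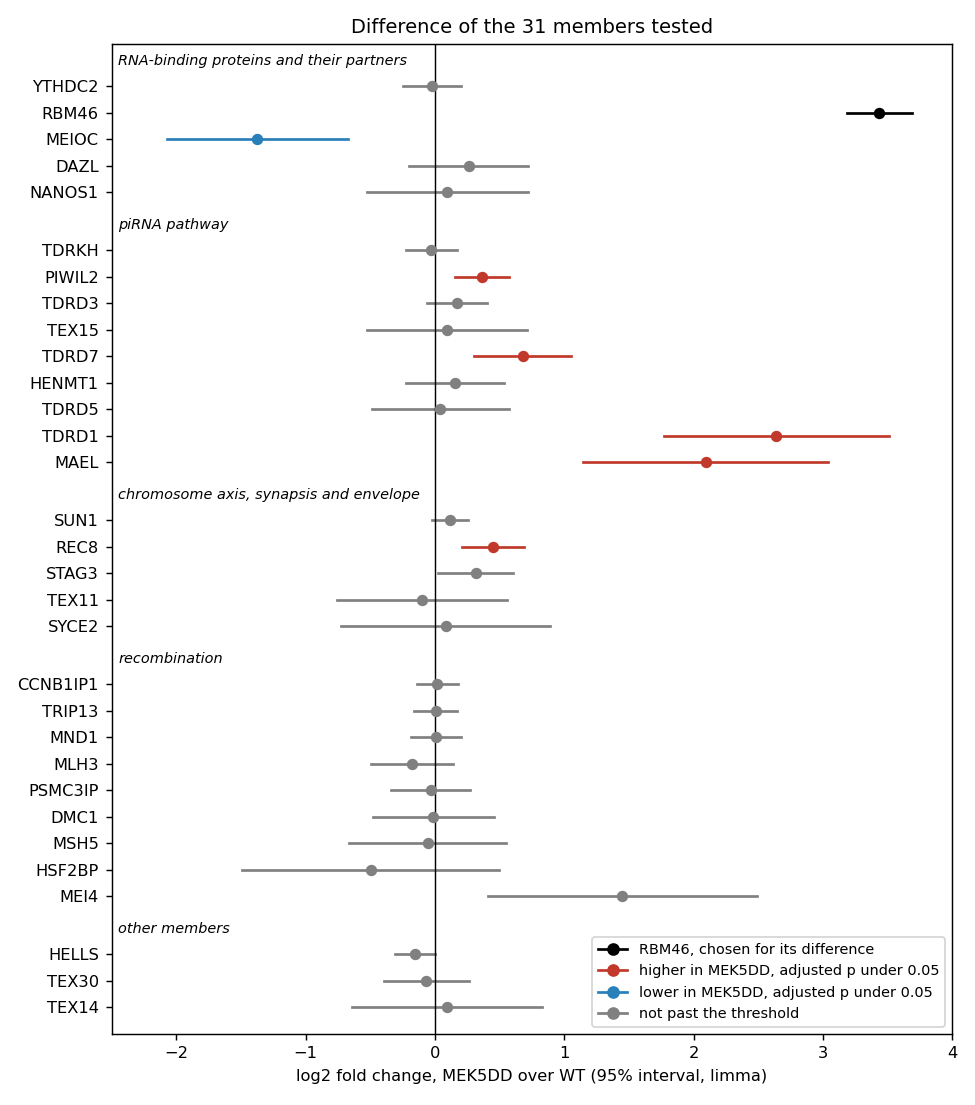
Log2 fold change of MEK5DD over WT on the log2(count + 1) scale for the 31 members tested, with 95% intervals from limma, grouped by role. RBM46 is in black without a test, 5 other members in red were higher, MEIOC in blue was lower, and the 9 recombination genes are all grey.

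RNA-binding proteins of the germ line and their partners made up 5 listed members. RBM46 encodes an RNA-binding protein that mouse germ cells need to enter and complete meiosis. Its normalised count was 911 and 994 in the MEK5DD libraries, against 94.2 and 80.2 in the WT libraries. The groups lay far apart, at 1003 and 997 recovered reads in MEK5DD against 107 and 77 in WT. The log2 fold change was 3.44 (SE 0.12), or 10.8-fold, given as a description. In bulk RNA, fewer cells of a type and less RNA per cell cannot be told apart, here and in what follows. RBM46 lies on chromosome 4 from 154781213 to 154828813 in GRCh38, and its rank was 10 from the top among all genes tested by log2 fold change.

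MEIOC, which in mouse germ cells works with the RNA helicase YTHDC2 to turn off the mitotic programme, moved the other way. It had counts of 12.7 and 22.9 in MEK5DD, against 44.0 and 47.9 in WT. Each MEK5DD library was below each WT library, on 14 and 23 reads against 50 and 46. The gene was 2.59-fold lower (log2 fold change -1.37, SE 0.32, limma adjusted p = 0.0136), and it did not pass when the variance was modelled without a trend on the mean (adjusted p = 0.104). MEIOC lies on chromosome 17 from 44656404 to 44690308, where 21.2% of its exon bases also belong to AC091152.2 and 6.23% to CCDC43 on the opposite strand. The sources used here do not say whether counting used strand. AC091152.2 had a mean count of 6.13 in MEK5DD and 4.37 in WT, and CCDC43 had 546 in MEK5DD and 552 in WT.

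YTHDC2 itself had 571 and 705 counts in MEK5DD, against 650 and 641 in WT. The groups overlapped, and the log2 fold change of -0.03 had a 95% interval from -0.25 to 0.20. DAZL, a translational regulator that germ cells share across vertebrates, had 57.2 and 52.8 in MEK5DD against 46.7 and 44.8 in WT (log2 fold change 0.26, interval -0.20 to 0.72). NANOS1, a relative of the germ cell repressors NANOS2 and NANOS3, had a log2 fold change of 0.10 (interval -0.53 to 0.72). DDX4, DND1, NANOS3 and BOLL are not listed and were not analysed here.

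The piRNA pathway held 12 listed members, of which 9 were tested, and 4 of these rose with none lower, beside 7.69% higher and 6.47% lower among all genes tested. Of these 4, TDRD1 and MAEL were tested only because their MEK5DD values passed the filter. PIWIL2 and TDRD7 did not pass with DESeq2, which gave no adjusted p for MAEL, so the count is a description. TDRD1, a Tudor-domain scaffold that binds PIWI proteins in germ granules, had 42.7 and 31.9 counts in MEK5DD, against 6.17 and 4.17 in WT. Those counts rest on 47 and 32 reads in MEK5DD and 7 and 4 reads in WT. The groups were well apart, with a log2 fold change of 2.64 (SE 0.40, 6.23-fold, limma adjusted p = 0.000987). In the limma fit of every listed gene, without the filter at 10, the adjusted p was 0.000522. Listing itself still depends on the level, through at least 1 read in every library. TDRD1 lies on chromosome 10 from 114179270 to 114232304.

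MAEL encodes a piRNA pathway protein needed for transposon silencing in mouse and fly germ cells. It had counts of 20.9 and 26.9 in MEK5DD, against 4.40 and 5.21 in WT, or 23 and 27 reads against 5 and 5. Both MEK5DD values were several times each WT value, and the log2 fold change was 2.09 (SE 0.43, 4.27-fold, limma adjusted p = 0.00719, and 0.00434 in the fit of every listed gene). MAEL lies on chromosome 1 from 166975582 to 167022214. With a pseudocount of 5 the log2 fold change was 1.55 for MAEL and 2.05 for TDRD1, since both are low in WT.

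The other piRNA genes that rose did so by less. TDRD7, a Tudor-domain protein of germ granules that is also made in the lens, had 114 and 146 in MEK5DD against 76.6 and 83.3 in WT. It was higher without overlap (log2 fold change 0.68, SE 0.17, limma adjusted p = 0.0211). It did not pass without the trend (adjusted p = 0.111), with DESeq2 (0.0836), or with WT replicate 1 (0.0680) or MEK5DD replicate 2 (0.0654) left out.

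PIWIL2 encodes the PIWI protein that loads primary piRNAs in mouse germ cells, where it is known as MILI. It was the most abundant listed gene of the PIWI family, with 600 and 546 counts in MEK5DD against 467 and 422 in WT. Those groups did not overlap, and the difference was 1.29-fold (log2 fold change 0.37, SE 0.10, limma adjusted p = 0.0248). It did not pass without the trend (adjusted p = 0.153), with DESeq2 (0.0737), or with either WT replicate left out (0.0510 for replicate 1, 0.291 for replicate 2). PIWIL2 lies on chromosome 8 from 22275297 to 22357563, and TDRD7 on chromosome 9 from 97411950 to 97496125.

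For the other piRNA genes tested no call was made. TDRKH, which tethers PIWI proteins to mitochondria for piRNA trimming, had 570 and 558 in MEK5DD against 602 and 548 in WT, which overlap (log2 fold change -0.03, interval -0.22 to 0.17). TDRD3, a Tudor protein with roles outside the germ line, had 341 and 372 in MEK5DD against 331 and 302 in WT (0.17, interval -0.06 to 0.40). Log2 fold changes were 0.16 for HENMT1, the methyltransferase that protects piRNA ends, 0.04 for TDRD5 and 0.09 for TEX15, a piRNA-linked silencing factor. TEX15 differed more within each group than between them, at 67.2 and 119 in MEK5DD and 63.4 and 110 in WT.

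PIWIL4, TDRD6 and TEX19 fell below the filter. PIWIL4, a nuclear PIWI protein gene, had 7 and 9 reads in MEK5DD against 5 and 8 in WT. TDRD6 had 9 and 5 reads in MEK5DD against 9 and 6 in WT, and TEX19 had 7 and 10 against 7 and 3. PIWIL1, TDRD9, ASZ1, MOV10L1, PLD6 and GTSF1 are not listed and were not analysed here.

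**Figure D3:**
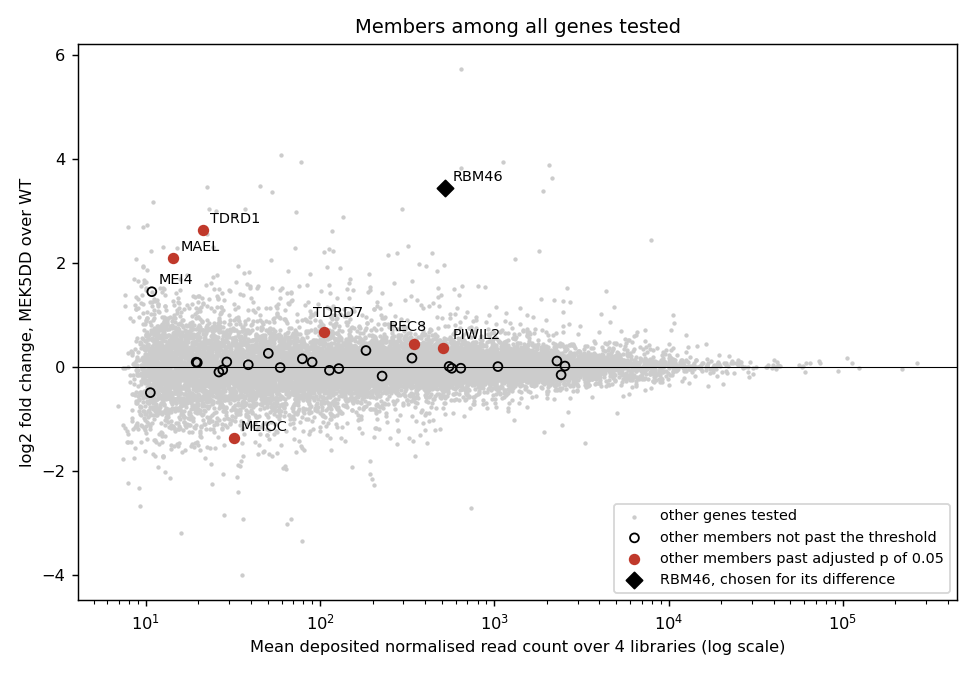
Log2 fold change of MEK5DD over WT against the mean normalised count of 4 libraries (log axis) for all genes tested in grey, members not past the threshold as open circles, members past it in red and RBM46 as a black diamond. TDRD1, MAEL and MEI4 lie high on the left, at mean counts where all genes scatter widely, and most other members lie along 0.

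Genes of the chromosome axis, synapsis and the meiotic nuclear envelope made up 6 listed members. Of these 5 were tested and 1 rose, beside 7.69% higher among all genes tested. REC8, the meiotic kleisin that closes the cohesin ring in place of RAD21, had 431 and 367 in MEK5DD against 284 and 297 in WT. The groups did not overlap and the difference was 1.37-fold (log2 fold change 0.45, SE 0.11, limma adjusted p = 0.0172). The call was lost without the trend (adjusted p = 0.130) and without WT replicate 1 (0.0964). REC8 lies on chromosome 14 from 24171853 to 24180257 and shares 1.01% of its exon bases with IPO4 on the opposite strand.

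STAG3, the cohesin subunit that pairs with REC8, had 204 and 201 in MEK5DD against 150 and 177 in WT. Its log2 fold change was 0.32 (interval 0.03 to 0.60) and it did not pass the adjusted threshold (limma adjusted p = 0.142). The 5 pseudogenes STAG3L1, STAG3L2, STAG3L3, STAG3L4 and STAG3L5P are listed too and resemble it, and PVRIG shares 18.7% of its exon bases, so its reads may be divided with these. SUN1, which links telomeres to the nuclear envelope and is used by somatic nuclei as well, had 2341 and 2411 in MEK5DD against 2217 and 2175 in WT (0.11, interval -0.03 to 0.25).

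SYCE2, a central element protein of the synaptonemal complex, had 14.5 and 26.9 in MEK5DD against 17.6 and 19.8 in WT, and it shares 24.1% of its exon bases with GCDH. TEX11, an X-linked gene of meiotic synapsis and crossing over, had 26.4 and 23.9 in MEK5DD against 31.7 and 22.9 in WT. In neither gene did the groups separate. SMC1B, the meiotic cohesin ATPase, was the lowest listed member, at 1 and 2 reads in MEK5DD against 5 and 4 in WT, just inside the listing limit of 1 read per library and below the filter for testing. SYCP1, SYCP2, SYCP3, SYCE1, SYCE3, RAD21L1, HORMAD1, HORMAD2 and TERB1 are not listed, so the structural core of the synaptonemal complex was not analysed here.

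Recombination genes gave 9 listed members, all tested, and 0 were called by limma in either direction, beside 14.2% of all genes tested. DESeq2 likewise called 0, with no adjusted p for MEI4 or HSF2BP, and edgeR called 1, MEI4. At an unadjusted p under 0.05 limma passed 1, MEI4. MEI4, which helps to place meiotic DNA breaks, had 13.6 and 18.9 in MEK5DD against 4.40 and 6.25 in WT. The groups did not overlap, on 15 and 19 reads against 5 and 6, with a log2 fold change of 1.45 (SE 0.48, interval 0.41 to 2.49, limma adjusted p = 0.0636). MEI4 passed with edgeR (adjusted p = 0.0476), and with limma without the filter (0.0496) and with the replicate number as a block (0.0230). It did not pass with limma without the trend (adjusted p = 0.0686). With a library left out its log2 fold change ran from 1.22 to 1.67. Except in the fit without the filter, MEI4 was tested only because its MEK5DD values passed the filter, so these values are a description.

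The abundant recombination genes stayed within narrow limits. CCNB1IP1, known as HEI10 in crossover formation, had 2718 and 2398 in MEK5DD against 2524 and 2523 in WT (log2 fold change 0.02, interval -0.14 to 0.17). TRIP13, an ATPase of meiotic axes and of the mitotic checkpoint, had 1089 and 1012 in MEK5DD against 1041 and 1049 in WT (0.01, interval -0.16 to 0.17). MND1, a partner of DMC1, had 574 and 529 in MEK5DD against 539 and 556 in WT (0.01, interval -0.18 to 0.20). In each of these 3 genes the groups overlapped.

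PSMC3IP, which binds MND1, had 126 and 127 in MEK5DD against 129 and 129 in WT, a log2 fold change of -0.03 (interval -0.34 to 0.27), and shares 29.9% of its exon bases with MLX. DMC1, the meiotic strand exchange protein, had 64.5 and 52.8 in MEK5DD against 52.8 and 65.6 in WT (-0.01, interval -0.48 to 0.45). The mismatch repair relatives MLH3 and MSH5, which act in crossing over, had log2 fold changes of -0.18 and -0.06. That of MLH3 was 0.04 without MEK5DD replicate 1 and -0.39 without MEK5DD replicate 2. Of the exon bases of MSH5, 47.3% are shared with the read-through gene MSH5-SAPCD1. HSF2BP, a BRCA2-binding protein, had 7.27 and 9.97 in MEK5DD against 10.6 and 14.6 in WT (-0.50, interval -1.49 to 0.50). SPO11, MEI1, MSH4, SPATA22 and MEIOB are not listed.

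The 3 remaining members were TEX14, TEX30 and HELLS, and limma called 0 of them, beside 14.2% of all genes tested. They were not called by edgeR or DESeq2 either, and did not pass limma at an unadjusted p under 0.05. HELLS, a chromatin remodeller needed for DNA methylation, had 2174 and 2401 in MEK5DD against 2461 and 2624 in WT. Its groups did not overlap (log2 fold change -0.15, interval -0.31 to 0.00, limma adjusted p = 0.189). The log2 fold change of HELLS was -0.08 without MEK5DD replicate 1 and -0.23 without MEK5DD replicate 2. TEX30 had 106 and 115 in MEK5DD against 115 and 117 in WT, a log2 fold change of -0.07. TEX14, a protein of the bridges between germ cells, had a log2 fold change of 0.09 (interval -0.64 to 0.83). BRDT is not listed.

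Levels were then set on a per-length scale, dividing each normalised count by the kilobases of exon in GENCODE v29, so that genes could be compared. RBM46 had 226 and 247 counts per kilobase in the MEK5DD libraries, against 23.4 and 19.9 in the WT libraries. On this scale it ranked 4 of 35 members in MEK5DD and 15 of 35 in WT, and it lay at percentile 83.0 of listed genes in MEK5DD and percentile 33.7 in WT. CCNB1IP1 (695 per kilobase in MEK5DD and 686 in WT) and MND1 (365 and 362) were the top members in each group. TDRD1 was at 7.10 counts per kilobase in MEK5DD and 0.983 in WT, and MAEL at 7.59 and 1.53, each no higher than percentile 18.2 of listed genes in either group. The member counts summed to 13604 and 13732 in MEK5DD and to 12409 and 12517 in WT, and RBM46 made up 6.70% and 7.24% of the sum in MEK5DD against 0.760% and 0.641% in WT.

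**Figure D4:**
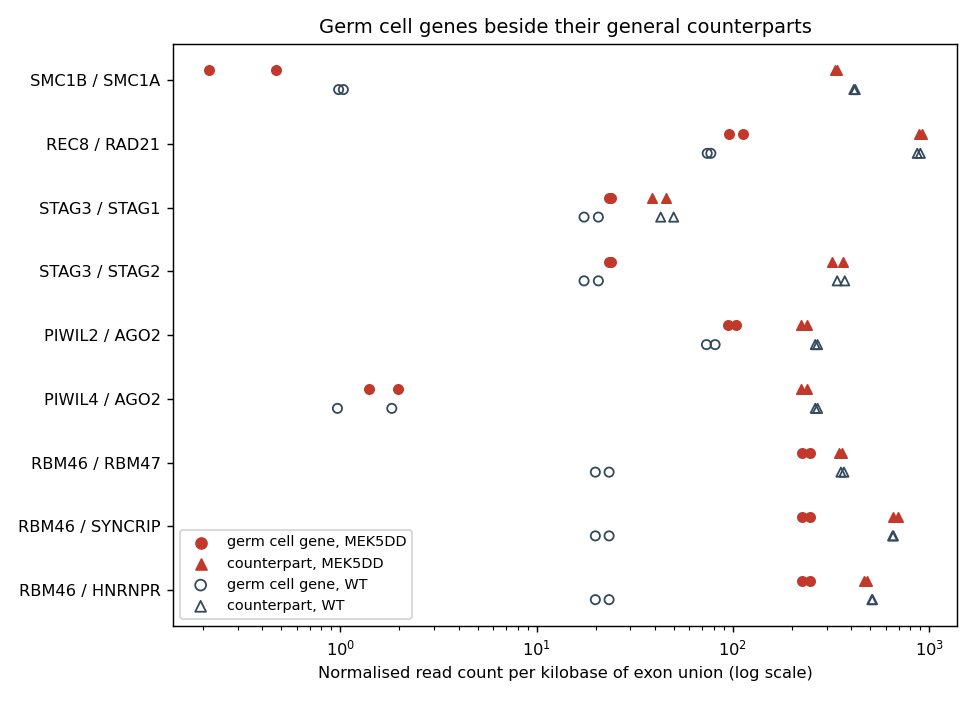
Normalised read count per kilobase of exon (log axis) for germ cell genes (circles) and the general genes they resemble (triangles), filled red for MEK5DD libraries and open for WT libraries. Each germ cell gene lies left of its counterpart in both groups, and RBM46 in MEK5DD comes nearest to RBM47 with 66.8% of its level, against 5.99% in WT.

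Several members have a general counterpart that somatic cells use, and the counterpart was higher per kilobase in each pair. REC8 was at 11.5% of the level of RAD21 in MEK5DD and 8.53% in WT, and SMC1B at 0.101% and 0.242% of SMC1A. STAG3 was at 6.94% of STAG2 in MEK5DD and 5.35% in WT, and at 56.2% and 41.0% of STAG1. PIWIL2 had 99.6 counts per kilobase beside 230 for AGO2 in MEK5DD, and 77.3 beside 266 in WT. RBM46 was at 49.7% of HNRNPR and 34.9% of SYNCRIP in MEK5DD, against 4.22% and 3.31% in WT, and these relatives of RBM46 were not called, nor was RBM47. A1CF, another relative, is not listed.

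Other genes of the same pathways were counted from lists. The counts here and in the lists that follow stand beside 7.69% higher and 6.47% lower among all genes tested. Of 34 further meiosis genes 19 were listed, 14 tested, 0 higher and 1 lower (median log2 fold change -0.06, beside -0.0023 over all genes tested). The gene that fell was C14orf39, which encodes the synaptonemal complex protein SIX6OS1. It had 38.2 and 27.9 in MEK5DD against 71.3 and 88.5 in WT (log2 fold change -1.26, SE 0.24, limma adjusted p = 0.00379), lost without the trend (adjusted p = 0.0699). TOP6BL, a partner of SPO11 listed under its older symbol C11orf80, had 260 and 241 in MEK5DD against 194 and 192 in WT and did not pass (limma adjusted p = 0.0510). It passed with edgeR (adjusted p = 0.0473), and with limma at a mean of at least 50 (0.0463) and with the replicate block (0.0251). It did not pass with limma without the trend (adjusted p = 0.111) or with DESeq2 (0.226). STRA8, MEIOSIN, PRDM9 and REC114 were among the 15 not listed. Of 16 further piRNA and germ granule genes 8 were tested, 1 rose and 0 fell (median 0.14), the RNA helicase gene DDX39A (log2 fold change 0.27, SE 0.07, limma adjusted p = 0.0329), which did not pass with DESeq2 (0.0737) or with either WT replicate left out (0.247 for replicate 1, 0.272 for replicate 2). TDRD12 had 31.8 and 36.9 in MEK5DD against 23.8 and 22.9 in WT and was not called (adjusted p = 0.237).

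Primordial germ cell markers had 10 of 16 genes listed and tested, 2 higher and 1 lower (median 0.11). TFCP2L1 (log2 fold change 0.57) and the membrane protein gene PDPN (0.40) rose, and the receptor gene KIT fell (-0.45), with limma adjusted p of 0.00282, 0.00318 and 0.00129 in that order. Without the variance trend these were 0.0566, 0.126 and 0.0756, so none of the 3 passed. The germ cell factor gene TFAP2C had 913 and 932 in MEK5DD against 753 and 833 in WT (adjusted p = 0.0991), and PRDM1 had 11.8 and 8.97 against 15.9 and 11.5. SOX17, NANOS2 and DMRT1 are not listed. In the PRC1.6 complex, all 14 genes were tested, 0 rose and 1 fell (median 0.04). TFDP1, the dimer partner of E2F proteins, was that member (log2 fold change -0.35, SE 0.07, limma adjusted p = 0.00510), which did not pass with either WT replicate left out (adjusted p = 0.0765 for replicate 1, 0.0897 for replicate 2) or without the trend (0.113). E2F6 had 329 and 294 in MEK5DD against 314 and 323 in WT, and MGA had 974 and 1255 against 1258 and 1174.

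Mitotic cohesin and loader genes had 12 of 12 tested, 0 higher and 1 lower (median -0.12), the ATPase gene SMC1A (log2 fold change -0.31, SE 0.06, limma adjusted p = 0.00466). The microRNA and argonaute genes had 1 higher and 4 lower of 15 (median -0.07), beside 7.69% higher and 6.47% lower among all genes tested. AGO3 rose (0.33), and MOV10 (-0.47), TNRC6A (-0.32), TNRC6C and AGO2 fell, of which MOV10 was the largest change. Among 11 tested relatives and partners of RBM46, 0 rose and MEX3A fell (-0.22; median 0.03). SMC1A, AGO2, AGO3, TNRC6A, TNRC6C and MEX3A did not pass with either WT replicate left out, and 0 of the genes named as changed in these 3 lists passed limma without the trend.

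Genes beside the members that moved did not all move with them. Within 250 kb of RBM46 the listed neighbours were LRAT, a retinol esterifying enzyme gene 28095 bases away that was lower (log2 fold change -1.12, SE 0.07, limma adjusted p = 5.22e-07), and PLRG1, not called (-0.14). Near TDRD1, AFAP1L2 was higher (1.43), ABLIM1 was lower (-0.46) and CCDC186 and VWA2 were not called. ILDR2, which starts 100 bases from MAEL, had a mean count of 16.5 in MEK5DD and 17.7 in WT (log2 fold change -0.13). Within 250 kb of MAEL, POU2F1 was lower (-0.26) and 3 genes, ILDR2 among them, were not called. Within 250 kb of MEIOC, FZD2 (-1.48) and GPATCH8 (-0.23) were lower and 6 others were not called. At the same distance, 1 gene was lower and 27 not called near REC8, and 1 lower and 8 not called near TDRD7. Near PIWIL2 1 was higher, 1 lower and 13 not called. Among all genes tested 7.69% were higher and 6.47% lower.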

How the data were processed

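Per the labels' protocols, poly(A) RNA gave paired-end NextSeq libraries. The deposited signal values are gene counts normalised by the authors. Each library's values were whole multiples of its smallest value for 100% of genes (within 0.001), from which reads were recovered, 14908486 to 17628945 per library. In MEK5DD replicate 2 that step (0.997) is near 1, and recovery rests on the largest departure, 6.86e-05. Tools credited to the submitters' processing notes are DESeq2 1.26.0, featureCounts 1.5.3, STAR and Trimmomatic 0.36, with the build hg38. The sources used here give neither the strand setting nor the gene models.

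Members and lists were chosen with earlier results of these data known. Genes reaching 10 in 2 or more libraries, 15721 in number, were transformed to log2(value + 1) and tested two-sided with limma 3.58.1 (R 4.3.3), its variance prior following the mean. Benjamini-Hochberg adjustment covered all of them, and the threshold was 0.05. Folds on that scale understate changes of low genes. Simulated data for this comparison (15538 genes, 200 of them altered) were tested first. Recovery was 79.7% at 1.5-fold and 100% at 2-fold, with 8 false among 192 calls. All altered genes had a mean of at least 50, so recovery was not measured for lower members such as TDRD1, MAEL, MEIOC and MEI4. The simulation gave both groups the same spread per gene, although the MEK5DD pair differed more than the WT pair.

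Alternatives were edgeR 4.0.16 and DESeq2 1.42.0 on recovered reads, no variance trend, pseudocounts of 0.5 and 5, no filter or a mean of at least 50, TMM, upper-quartile and quantile scaling, the replicate number as a block, and leaving out each library. edgeR called 2306 genes. Symbols were matched to GENCODE v29 (97.8%). None of the 25 members not listed appears under an older symbol. In the lists, TBXT, TOP6BL and BRME1 were matched by an older symbol. The rule for named genes was every member, with values by library for RBM46, called members and the 8 others highest per kilobase, and up to 3 called genes per list. Added after their values were seen were library values or reads of the other members that have them in the text, TNRC6C and AGO2 beyond the limit of 3, single marker genes, CCDC43, AC091152.2, neighbours, TDRD12, TOP6BL, TFAP2C, PRDM1, E2F6, MGA and counterparts. A list of general repair genes is not reported here.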

Additional observations from a re-analysis of the deposited data

How the results depend on the processing

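The count of all genes called was 2226, against 439 without the variance trend, 1358 with DESeq2 and 1160 to 4629 with a library left out. With the replicate number as a block it was 3349, and the members called were 8 in place of 7, RBM46 counted, with MEI4 the member added. Same-numbered libraries hardly deviated together (correlation 0.047 over genes), so they share only a number. Members called, RBM46 counted, were 3 of 31 without the trend and 4 of 28 with DESeq2, beside 2.79% and 9.57% of all genes. At a mean of at least 50 they were 4 of 20, beside 2139 of 12219 genes. TDRD1, MAEL and MEIOC were not tested at that mean. With a library left out, 1 group has a single library and its spread is not measured. The median log2 fold change of the members (0.0821) was 0.0548 at a mean of at least 50, 0.102 after quantile normalisation and 0.0416 to 0.127 with a library left out. Beyond the change in which members were tested, the cause of these shifts was not tested.

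Direction turned only in members that were not called. Under upper-quartile factors the log2 fold change was -0.0053 for MND1 and -0.00903 for TRIP13. After quantile normalisation it was 0.0292 for DMC1, -0.00647 for MND1 and -0.0188 for TRIP13. With a library left out it ran between -0.34 and 0.505 for SYCE2, -0.325 and 0.127 for TEX11, -0.0583 and 0.241 for TEX14, and -0.312 and 0.498 for TEX15. The range was -0.0811 to 0.164 for TDRD5, -0.0952 to 0.0416 for TDRKH, -0.166 to 0.141 for DMC1, -0.049 to 0.0686 for MND1 and -0.387 to 0.0354 for MLH3. For MSH5 it was -0.115 to 0.000742, for NANOS1 -0.104 to 0.297, for TRIP13 -0.0467 to 0.0589, for CCNB1IP1 -0.0735 to 0.107 and for YTHDC2 -0.177 to 0.127. Members with under 50 reads per library, TDRD1 and MAEL among them, are limited by counting.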
